A study of Homo sapiens with 21 samples.

Results

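Gene expression in A549 cells transfected with control siRNA was compared with and without trichostatin A (TSA), a drug that inhibits histone deacetylases. A549 is a human lung adenocarcinoma line. The comparison rests on 6 of the 21 arrays of the series, taken by their sample labels: 3 arrays of TSA-treated control cells and 3 arrays of untreated control cells, each hybridized with RNA from a separate biological replicate. All 6 samples carried a universal control siRNA delivered with Lipofectamine, and the treated cells received TSA at 100 ng/ml for 4 h before RNA was taken. The other 15 arrays hold A549 cells with APE1 siRNA, without or with TSA, and BEAS-2B bronchial epithelial cells with ectopic wild-type or mutant APE1. The study used TSA to raise the acetylated form of APE1, a DNA repair and redox protein encoded by APEX1, and the comparison within control siRNA cells shows which transcripts differed with the drug where APE1 had not been depleted. The labels describe the TSA treatments as a set of experiments of its own, and they differ from the study's methods in the time between transfection and harvest. TSA and that set of experiments cannot be told apart in these arrays. One cell line, dose and time were measured, so the values below apply to that setting.

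Histone deacetylases remove acetyl groups from lysines of histones and of many other proteins, and lysine acetyltransferases put them on. The zinc-dependent deacetylases, which TSA inhibits, act mostly within multi-subunit corepressor complexes that are recruited to promoters and enhancers. Inhibitors of these enzymes raise histone acetylation within hours, and they are known in many cell types for induction of the CDK inhibitor CDKN1A, for arrest of the cell cycle, and for transcripts that fall as well as transcripts that rise.

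Each value is the log2 signal of a probe set after RMA (robust multi-array average, which corrects background and gives each array the same distribution of signals). Where several probe sets name one gene, the probe set of highest average signal across the 12 A549 arrays stands for it, and a change is given on the log2 scale as TSA minus no TSA. Changes were tested with limma over the 12 A549 arrays and adjusted by the Benjamini-Hochberg method over 54613 probe sets, and a call of higher or lower needed an adjusted p below 0.05 together with group levels at least 25% apart. The adjusted p-values below are from that fit. The number of arrays, 3 a group, limits the precision.

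The arrays of a group resembled each other, with pairwise correlations of 0.9968 to 0.9980 over the probe sets, and arrays of different groups correlated at 0.9772 to 0.9810. One array outside the comparison, APE1 siRNA replicate 2, stood apart from all 6 compared arrays (0.8765 to 0.8938) and widened the spread that limma assigned to many genes. Counts are therefore given with it, and for gene lists also without it where it moved a count above 0 by more than 1.5 times. Of 8 markers listed for A549 cells none was higher and 1 was lower with TSA. KRT18, an epithelial keratin, had a mean of 11.3 in untreated cells and AKR1B10, an aldo-keto reductase, 12.9, while the epithelial adhesion genes EPCAM (4.70) and CDH1 (5.34) were near the low end of the array's range. None of the measured leukocyte, fibroblast or endothelial markers was called. Of 4 ciliated cell markers 2 rose, TUBB4A, a tubulin, by 1.35 and RSPH1, an axoneme component, by 0.90. FOXJ1 (0.01) and DNAH9 (-0.20) were not called. The mean of the 4 markers ranged from 6.84 to 6.89 without TSA and from 7.32 to 7.41 with it.

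The control transcripts that Affymetrix protocols add to every sample, which do not come from the cells, also differed between the 2 groups of arrays. The bacterial bioB hybridization control read 8.02, 7.83 and 7.78 on the untreated arrays and 6.27, 6.19 and 6.47 on the TSA arrays, a median difference over its 6 probe sets of -1.54. The other hybridization controls differed the opposite way, with medians of 0.88 for bioC, 0.73 for bioD and 0.50 for cre. The poly-A controls, which are added to the RNA before it is labelled, were all lower with TSA: dap by -1.61, phe by -1.36, thr by -1.31 and lys by -0.96. The 18S ribosomal RNA probe sets read 10.1, 10.3 and 10.2 without TSA and 12.3, 12.6 and 12.6 with it, a median difference of 2.29. For each of these 9 transcripts all 3 TSA arrays lay on one side of all 3 untreated arrays, and the exact two-sided permutation test over the 6 arrays gave p = 0.1, the smallest value that 3 against 3 can give. The ACTB probe sets at the 3' end exceeded those at the 5' end by 0.23 without TSA and 0.73 with it (exact permutation p = 0.1), whereas for GAPDH the gap was 0.09 and 0.08 (p = 1.0). The share of any gene's change that goes with these differences in the added controls and ribosomal RNA was not tested.

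**Figure D1:**
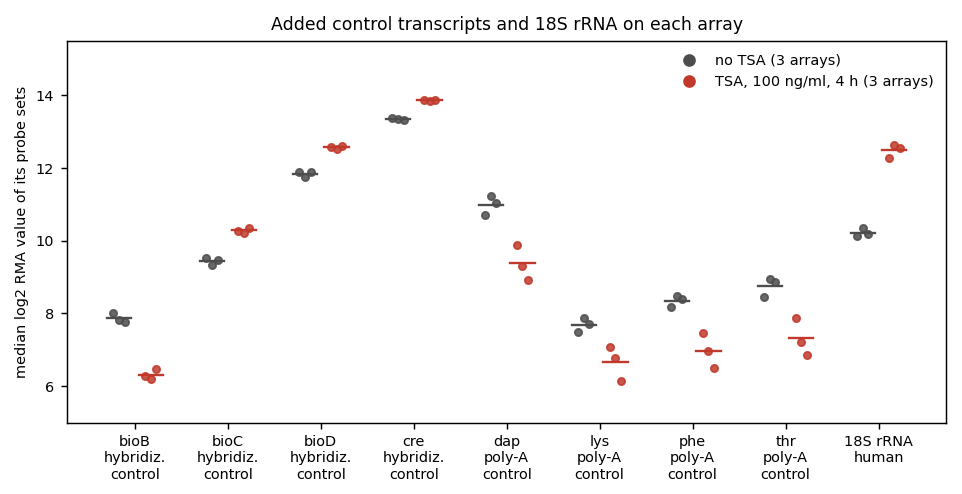
Median log2 RMA value of the probe sets of each added control transcript and of 18S rRNA (vertical axis) on the 3 arrays without TSA (grey points) and the 3 with TSA (red points), with lines at the group means. For each of the 9 transcripts the groups do not overlap, with the poly-A controls and bioB lower and bioC, bioD, cre and 18S rRNA higher on the TSA arrays.

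Of 19775 genes tested 2358 were higher with TSA, a background of 11.9% of all genes, and 1767 were lower, a background of 8.94%. At least 2-fold changes were more unequal, with 629 genes higher (3.18%) and 222 lower (1.12%). The median change over all genes was -0.04, that of the genes called higher was 0.71 and that of the genes called lower -0.57. In all 2358 genes called higher, and in 1765 of the 1767 called lower, the 3 TSA arrays did not overlap the 3 untreated arrays. The same held for 11704 of all 19775 genes and for 7581 of the 15650 not called. A lack of overlap, given for single genes below, was thus common on these arrays. Without APE1 siRNA replicate 2 the fit called 3242 genes higher (16.4%) and 2855 lower (14.4%), and these held all 4125 genes called with it, in the same direction. At least 2-fold, 683 were then higher (3.45%) and 293 lower (1.48%). A mean below 6 without TSA was found in 244 of the 2358 genes called higher (10.4%) and 115 of the 1767 called lower (6.51%), against 25.3% of all genes. Among genes changed at least 2-fold it was found in 93 of 629 higher and 0 of 222 lower. Whether the low end of the array's range limits falls of that size was not tested.

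**Figure D2:**
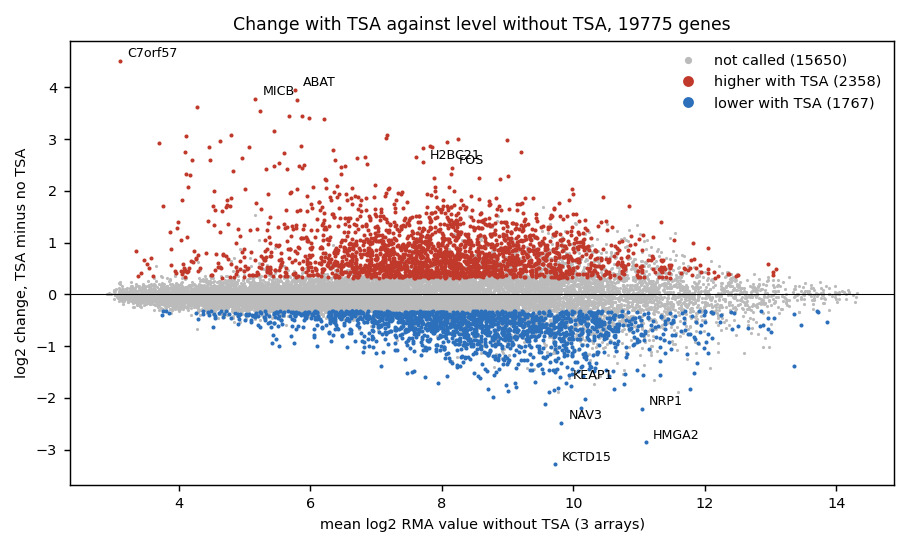
Log2 change with TSA (vertical axis) against the mean log2 RMA value without TSA (horizontal axis) for 19775 genes, with genes called higher in red, genes called lower in blue and genes not called in grey; both axes use the same untreated arrays. The largest rises, up to 4.51 for C7orf57, include genes of low value, and the 15 largest falls, down to -3.28 for KCTD15, start from values between 8.70 in ZBTB2 and 11.78 in RSPO3.

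The 15 largest rises ranged from 3.01 to 4.51. C7orf57 read 3.00, 3.06 and 3.23 in untreated cells and 7.53, 7.58 and 7.70 with TSA, a 22.8-fold rise (log2 4.51, SE 0.33, adjusted p = 7.19e-06), from a signal near the floor of the array. ABAT, the transaminase that breaks down GABA, read 5.87, 5.66 and 5.78 without and 9.66, 9.82 and 9.68 with TSA, a rise of 3.96 (SE 0.07, adjusted p = 3.28e-09). Its 3 probe sets did not move alike, with changes from 0.04 to 5.34. MICB, a stress ligand that natural killer cells recognise through NKG2D, rose by 3.78 (SE 0.13), from 5.25, 5.39 and 4.84 to 8.83, 8.89 and 9.11. GRHL1, a grainyhead-like transcription factor of epithelia, went from 5.62, 5.80 and 5.96 to 9.65, 9.57 and 9.41, a rise of 3.75 (SE 0.11). The other GRHL1 probe set changed by 0.10 and was not called. In these 4 genes the lowest TSA array was above the highest untreated array by several log2 units.

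The others of the 15 were of mixed function. Several are known from the nervous system or from signalling at the cell surface: DNER, a transmembrane protein related to Notch ligands (3.45), TMEFF2, a membrane protein with EGF-like and follistatin-like domains (3.39), SERPINI1, the protease inhibitor neuroserpin (3.15), and TSPAN13, a tetraspanin (3.07). SLAIN1, a protein of growing microtubule ends, rose by 3.63, NANOS1, an RNA-binding translational repressor, by 3.55, and FKBP1B, which binds ryanodine receptors, by 3.45. The other NANOS1 probe set changed by 0.08 and was not called. TNFAIP6, a secreted hyaluronan-binding protein, went from 5.93, 5.96 and 6.05 to 9.20, 9.51 and 9.43, a rise of 3.40 (SE 0.08). PPP4R4, a regulatory subunit of protein phosphatase 4, rose by 3.06 and DACT3, a regulator of Wnt signalling, by 3.01. The other DACT3 probe set changed by 0.30 and was not called. EP300-AS1, an antisense transcript annotated at the locus of the acetyltransferase EP300, read 4.86, 4.82 and 4.67 without and 7.74, 7.78 and 8.05 with TSA (3.07, SE 0.10). EP300 itself read 8.67 ± 0.05 (SD, n = 3) without and 8.18 ± 0.02 with TSA, a difference of -0.49 that was not called (adjusted p = 0.099, and 7.96e-05 without APE1 siRNA replicate 2).

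The 15 largest falls ranged from -1.82 to -3.28. KCTD15, a BTB-domain protein, read 9.67, 9.78 and 9.72 without TSA and 6.54, 6.19 and 6.59 with it, a 9.73-fold fall (log2 -3.28, SE 0.35, adjusted p = 7.8e-05). HMGA2, an AT-hook protein that shapes chromatin and is expressed in embryos and in many carcinomas, fell from 10.97, 11.11 and 11.23 to 8.27, 8.18 and 8.29 (-2.86, SE 0.12, adjusted p = 1.75e-07). NAV3, a microtubule-associated neuron navigator, fell from 9.70, 9.87 and 9.89 to 7.47, 7.23 and 7.31 (-2.48, SE 0.23). NRP1, a co-receptor for semaphorins and VEGF, fell from 11.04, 11.13 and 10.95 to 8.98, 8.92 and 8.60 (-2.21, SE 0.37). In each of the 4 genes every TSA array was below every untreated array at the probe set shown. Calls of lower were made at 4 of 5 probe sets of KCTD15, 3 of 9 of HMGA2, 2 of 5 of NAV3 and 2 of 4 of NRP1. Changes at the other probe sets reached 0.02 in HMGA2 and 0.04 in NRP1.

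The other 11 of the largest falls were of mixed function. VEGFC, a growth factor of lymphatic vessels, changed by -1.87, the Wnt agonist RSPO3 by -1.84, and PAPPA, a protease that cleaves IGF-binding proteins, by -2.11. PAPPA was called lower at 6 of its 11 probe sets, whose changes ranged from -2.27 to 0.32. JADE2, a PHD-finger subunit of KAT7 acetyltransferase complexes, read 10.17, 10.14 and 10.05 without and 8.03, 7.92 and 7.84 with TSA (-2.19, SE 0.14). The zinc finger proteins ZBTB1 and ZBTB2 changed by -1.88 and -1.82, TGFB1I1, an adaptor of focal adhesions, by -1.84, TMEM17, a protein of the ciliary transition zone, by -1.84, and PDE4B, a phosphodiesterase of cAMP, by -1.82. PBDC1 fell by 2.03 and CCDC9B by 1.99. The calls of TMEM17 and ZBTB1 did not outlast the removal of any 1 of the 6 arrays (adjusted p from 0.0844 to 0.0998 and from 0.0643 to 0.0756), although their changes remained between -1.91 and -1.80 and between -1.89 and -1.85. Without APE1 siRNA replicate 2 their adjusted p-values were 1.17e-08 and 8.8e-11.

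**Figure D3:**
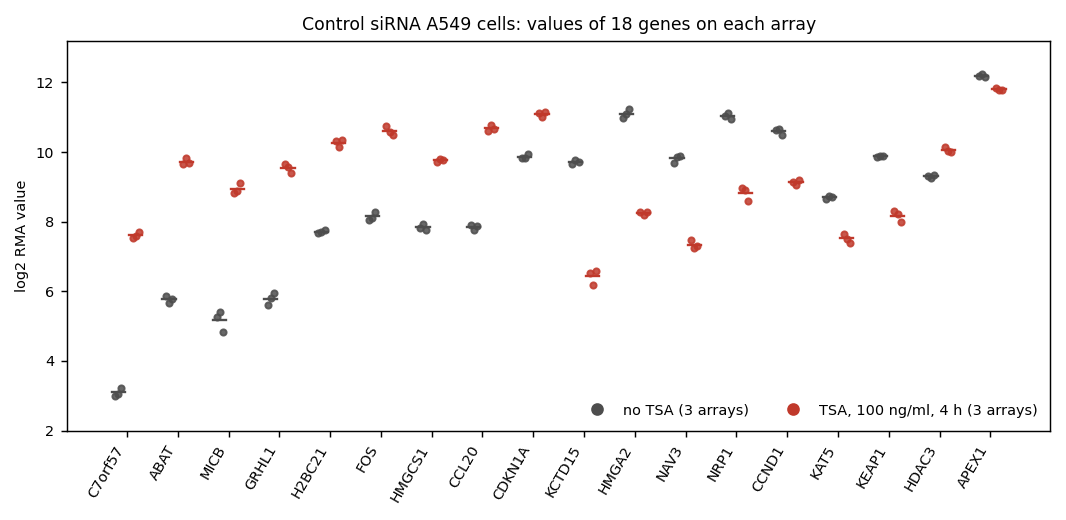
Log2 RMA value (vertical axis) of 18 genes named in the text on each of the 3 untreated arrays (grey) and 3 TSA arrays (red) of control siRNA A549 cells, with lines at the group means. The 2 groups do not overlap in any of the 18 genes, and the change ranges from 4.51 in C7orf57 to -3.28 in KCTD15, with -0.39 in APEX1. Of all 19775 genes, 11704 had groups that did not overlap.

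The 250 bases before the start site are shown for CDKN1A, the textbook target of deacetylase inhibitors, and for the genes with the largest rise and the largest fall that have a promoter entry, since they differ in base composition. The sequences are from RefSeq on GRCh38.p14, on the plus strand, and capitals mark a GC box (GGGCGG) or a CCAAT box (CCAAT), each on either strand. CDKN1A lies at chr6:36678464-36678713, C7orf57 at chr7:48035293-48035542 and NAV3 at chr12:77830644-77830893. KCTD15 and HMGA2 are named only.

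CDKN1A: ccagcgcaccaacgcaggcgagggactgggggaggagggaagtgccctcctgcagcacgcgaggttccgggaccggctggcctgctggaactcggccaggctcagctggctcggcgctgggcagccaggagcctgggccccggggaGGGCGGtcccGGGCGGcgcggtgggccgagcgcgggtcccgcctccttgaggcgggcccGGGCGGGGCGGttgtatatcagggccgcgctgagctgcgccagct
C7orf57: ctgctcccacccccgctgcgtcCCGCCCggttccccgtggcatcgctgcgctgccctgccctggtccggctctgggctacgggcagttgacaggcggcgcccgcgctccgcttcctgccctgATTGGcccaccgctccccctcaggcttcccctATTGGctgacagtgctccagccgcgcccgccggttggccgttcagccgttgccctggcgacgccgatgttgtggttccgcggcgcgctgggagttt
NAV3: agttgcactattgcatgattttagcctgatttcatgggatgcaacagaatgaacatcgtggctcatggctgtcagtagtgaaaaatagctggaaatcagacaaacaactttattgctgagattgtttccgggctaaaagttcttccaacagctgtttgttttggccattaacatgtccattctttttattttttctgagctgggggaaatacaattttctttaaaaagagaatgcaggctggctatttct

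The CDKN1A window held 4 GC boxes at 76.4% G and C, the C7orf57 window 1 GC box and 2 CCAAT boxes at 72.4%, and the NAV3 window none of the 6 motifs searched at 38.0%. Over 15384 genes with an entry, 56.3% of such windows held a GC box, against 72.7% of those of 1947 genes called higher and 59.6% of those of 1444 genes called lower. The CCAAT box was in 34.1% of all windows, 41.3% of those of risers and 32.5% of those of fallers. Other motifs were less frequent: the AP-1 site TGANTCA was in 5.03% of all windows, 3.24% of those of risers and 5.54% of those of fallers, the TATA box TATAAA in 8.31%, 5.44% and 5.96%, the E-box CACGTG in 7.83%, 8.89% and 8.80%, and the CRE TGACGTCA in 2.38%, 3.29% and 2.29%. The median share of G and C was 62.4% over all windows, 66.4% over risers and 63.4% over fallers. The shares describe letters and were not tested, nor was the part that base composition has in them.

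Transcripts of the drug's own targets were called both ways, beside 11.9% of all genes higher and 8.94% lower. Of the 11 zinc-dependent histone deacetylases 2 were higher and 2 lower, and the median change was 0.01. HDAC3, the catalytic subunit of the NCoR and SMRT complexes, read 9.32, 9.26 and 9.35 without TSA and 10.14, 10.04 and 10.00 with it, a rise of 0.75 (SE 0.07, adjusted p = 3.83e-05) with no overlap of the arrays. HDAC9, a class IIa enzyme, read 8.25, 8.14 and 8.17 without and 7.60, 7.48 and 7.74 with TSA (-0.58, SE 0.08), although the mean of its 5 probe sets changed by -0.03. HDAC6, the tubulin deacetylase, fell by 0.51 (SE 0.08). HDAC5, another class IIa enzyme, rose by 0.51 at an adjusted p of 0.0499, which went to between 0.0733 and 0.145 when 1 of the 6 arrays was left out. HDAC1 (10.84, 10.80 and 10.97 without TSA, a change of 0.13) and HDAC2 (10.78, 10.82 and 10.87, a change of 0.01), the catalytic pair of the Sin3, NuRD and CoREST complexes, were not called, nor were HDAC4, HDAC7, HDAC8, HDAC10 and HDAC11. HDAC7 was -0.58 (adjusted p = 0.332, and 9.99e-05 without APE1 siRNA replicate 2).

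Subunits of the deacetylase complexes changed in both directions, 7 of 26 higher and 3 lower with a median of 0.26, and 10 and 7 without APE1 siRNA replicate 2. The share lower, 11.5%, was near the 8.94% of all genes. RCOR1, the scaffold of the CoREST complex, rose by 0.79 (SE 0.06) from 9.55, 9.56 and 9.44 to 10.27, 10.32 and 10.34. TBL1X, a subunit of the NCoR complex, rose by 0.60, and ING1 and SAP30L, subunits of Sin3 complexes, rose by 0.76 and 0.52. ING1 was called higher at all 4 of its probe sets. The other RCOR1 probe set changed by 0.05 and was not called. TBL1X was called at 2 of its 6 probe sets (lowest change -0.245) and SAP30L at 1 of 6 (lowest -0.15). Among the subunits that fell, TBL1XR1, the paralog of TBL1X, read 10.29, 10.42 and 10.32 without and 9.03, 8.94 and 9.07 with TSA (-1.33, SE 0.22); it was singled out after its values were seen. When the 12 A549 arrays were quantile normalized once more, 1 of these 26 subunits was called higher and 3 lower, with a median of 0.23. With the probe sets of each gene averaged, 4 were higher and 4 lower, with a median of 0.095.

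The list of lysine acetyltransferases, which oppose the deacetylases, also counts the scaffold proteins BRPF1 and BRPF3. Its calls went one way, with 0 of 15 measured members higher and 6 lower and a median of -0.54. KAT5 (Tip60), the catalytic subunit of the NuA4 complex, read 8.64, 8.73 and 8.72 without TSA and 7.66, 7.51 and 7.39 with it (-1.18, SE 0.07, adjusted p = 2.47e-06). BRPF3, a scaffold of KAT7 complexes, fell by 1.03, CREBBP, the CBP acetyltransferase, by 0.69 and KAT7 by 0.65. All 3 TSA arrays were below the untreated arrays for each of the 4 genes. Without APE1 siRNA replicate 2 the count was 0 higher and 10 lower. Among the readers of acetylated histones and the factors that release paused RNA polymerase II, 4 of 17 were higher and 4 lower, and without that array 6 and 7. AFF1 and AFF4, scaffolds of the super elongation complex, rose by 1.20 (SE 0.05) and 1.03 (SE 0.21), although another AFF1 probe set was called lower (-0.39). MEPCE, the capping enzyme of the 7SK RNA that holds P-TEFb inactive, fell from 10.06, 10.00 and 10.12 to 8.86, 8.76 and 8.61 (-1.31, SE 0.17), and CCNT2, a cyclin of P-TEFb, fell by 0.72.

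Of 23 histone genes 9 were higher, 1 was lower and 13 were not called, with a median of 0.37. H2BC21, a replication-independent H2B gene that deacetylase inhibitors are known to induce, read 7.67, 7.70 and 7.76 without TSA and 10.31, 10.14 and 10.33 with it, a rise of 2.55 (SE 0.07, adjusted p = 1.66e-08). The linker histone H1-10 rose by 1.63 (SE 0.07), H2AC6 by 1.46 (SE 0.06) and H2BC5 by 1.16 (SE 0.08), in each case with no overlap of the arrays. The member that fell was MACROH2A2, a macroH2A variant (9.01, 9.01 and 9.06 against 8.02, 7.94 and 8.0, a change of -1.04). Histone genes are near-identical in sequence, so a probe set can read more than one of them.

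Of 29 measured genes listed as induced by deacetylase inhibitors 10 were higher, 2 lower and 17 not called, with a median of 0.31. The leading members beside H2BC21 were SYT11, a synaptotagmin (1.72, SE 0.07), GADD45B, a stress protein that acts on MAP kinases (1.45, SE 0.07), and GLRX, a glutaredoxin (0.95, SE 0.06). KLF4, a Kruppel-like factor named under its family's list, rose by 1.31 (SE 0.08). GADD45B read 8.70, 8.73 and 8.55 without and 10.08, 10.12 and 10.13 with TSA. CDKN1A, the p21 inhibitor of cyclin-dependent kinases, read 9.83, 9.83 and 9.95 without TSA and 11.11, 11.01 and 11.14 with it. Its arrays did not overlap and its change was 1.22, but its SE in the fit of 12 arrays was 0.65 and it was not called (adjusted p = 0.238). Without APE1 siRNA replicate 2 the adjusted p of CDKN1A was 7.18e-09. Of 20 measured genes listed as repressed by such inhibitors 0 were higher and 6 lower, with a median of -0.47, and without that array 12 were lower. CTPS1, which makes CTP, fell by 0.75 (SE 0.07), and the mitotic kinases AURKA and PLK1 by 0.78 and 0.97. Both lists were drawn up with the drug class in view.

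Most cell cycle genes that were called were lower, and the exceptions included inhibitors. The share of G1 regulators called higher, 13%, was near the 11.9% of all genes. Of 23 G1 regulators 3 were higher and 6 lower, with a median of -0.21, and 5 and 8 without APE1 siRNA replicate 2. CDKN2D, the p19 inhibitor of CDK4 and CDK6, rose by 1.47 (SE 0.14) from 6.60, 6.67 and 6.47 to 8.05, 8.10 and 7.98, and CDKN1C, the p57 inhibitor, rose by 1.37 (SE 0.12). The other CDKN2D probe set changed by 0.03 and was not called. CDKN1C was called at 3 of its 5 probe sets, with a lowest change of 0.03. CDK4, the kinase partner of D cyclins, fell from 11.88, 11.78 and 11.90 to 11.03, 11.05 and 10.89 (-0.87, SE 0.13), and CCNE2, an E cyclin, fell by 0.57. CCND1 (cyclin D1), singled out after its values were seen, fell from 10.65, 10.67 and 10.49 to 9.14, 9.04 and 9.20 (-1.47, SE 0.23, adjusted p = 0.000976). In all of these genes the 2 groups did not overlap at the probe set shown.

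DNA replication genes had a median of -0.50, with 1 of 32 higher and 6 lower, and without APE1 siRNA replicate 2 with 1 higher and 20 lower. ORC1, a subunit of the origin recognition complex, read 7.43, 7.43 and 7.44 without and 6.77, 6.65 and 6.74 with TSA (-0.72, SE 0.07). RFC4, of the clamp loader, and MCM6, of the replicative helicase, each fell by 0.55, and POLA2, of the primase complex, fell by 0.49. Mitosis genes had a median of -0.48, with 0 of 30 higher and 10 lower, and 1 higher and 20 lower without that array. PLK1, a mitotic kinase, fell from 7.34, 7.63 and 7.43 to 6.55, 6.44 and 6.50 (-0.97, SE 0.14, adjusted p = 0.000766). UBE2C, the ubiquitin-conjugating enzyme of the anaphase-promoting complex, and AURKA each fell by 0.78, TTK, a spindle checkpoint kinase, by 0.58, and NUF2, a kinetochore protein, by 0.57.

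p53 targets and the BCL2 family had more calls higher than lower, beside 11.9% of all genes higher and 8.94% lower. Their shares lower, 9.09% and 12.5%, were near that of all genes. Without APE1 siRNA replicate 2 the shares of all genes were 16.4% and 14.4%. Of 22 p53 targets 7 were higher and 2 lower, with a median of 0.15, and 8 and 6 without APE1 siRNA replicate 2. PPM1D, a phosphatase that dampens p53, rose by 0.99 (SE 0.06) from 7.87, 8.0 and 7.93 to 8.87, 8.90 and 9.02, while POLH, a translesion polymerase, rose by 0.94, RRM2B, a ribonucleotide reductase subunit, by 0.84 and GADD45A by 0.62. Of 16 BCL2 family genes 4 were higher and 2 lower, and with that array left out 6 and 4. BCL2L11 (BIM), which promotes apoptosis, read 8.32, 8.31 and 8.31 without TSA and 9.94, 10.08 and 10.09 with it, a rise of 1.72 (SE 0.07, adjusted p = 1.58e-07) with 5 of its 7 probe sets called higher. BCL2A1, which opposes apoptosis, rose by 1.44 (SE 0.08), and BIK, which promotes it, by 0.94 (SE 0.15). BCL2L2 (BCL-w), an anti-apoptotic member, fell by 0.76 (SE 0.09).

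Immediate early genes formed one of the lists with the highest share of risers, 11 of 20 higher and 1 lower with a median of 0.92, against the background of 11.9%. FOS, a subunit of AP-1 singled out after its values were seen, read 8.05, 8.11 and 8.29 without and 10.74, 10.57 and 10.50 with TSA (2.45, SE 0.17). EGR3, a zinc finger factor, rose by 2.39 (SE 0.13) from 4.64, 4.85 and 4.97 to 7.18, 7.02 and 7.42. FOSB rose by 1.76, MAFF, a small Maf protein, by 1.44, and JUND by 1.21. The other MAFF probe set changed by 0.12 and was not called. JUND was called at 1 of its 4 probe sets, and its mean over probe sets changed by 0.27. The member that fell was FOSL1 (FRA-1), from 9.81, 9.80 and 9.86 to 8.72, 8.80 and 8.70 (-1.08). JUN was 11.60 without and 12.04 with TSA and was not called (adjusted p = 0.734, and 4.13e-05 without APE1 siRNA replicate 2). Of 19 feedback genes of the ERK pathway 5 were higher and 1 lower, and 6 and 3 without that array. The MAP kinase phosphatases DUSP14 (1.26, SE 0.06), DUSP6 (1.11, SE 0.09) and DUSP10 (1.04, SE 0.11) rose, and DUSP4 fell from 11.06, 11.03 and 10.99 to 10.09, 10.32 and 10.31 (-0.79, SE 0.08). Of 10 EGF family ligands and receptors TGFA rose by 0.35 and NRG1 fell by 0.80, and without that array 1 was higher and 2 lower.

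**Figure D4:**
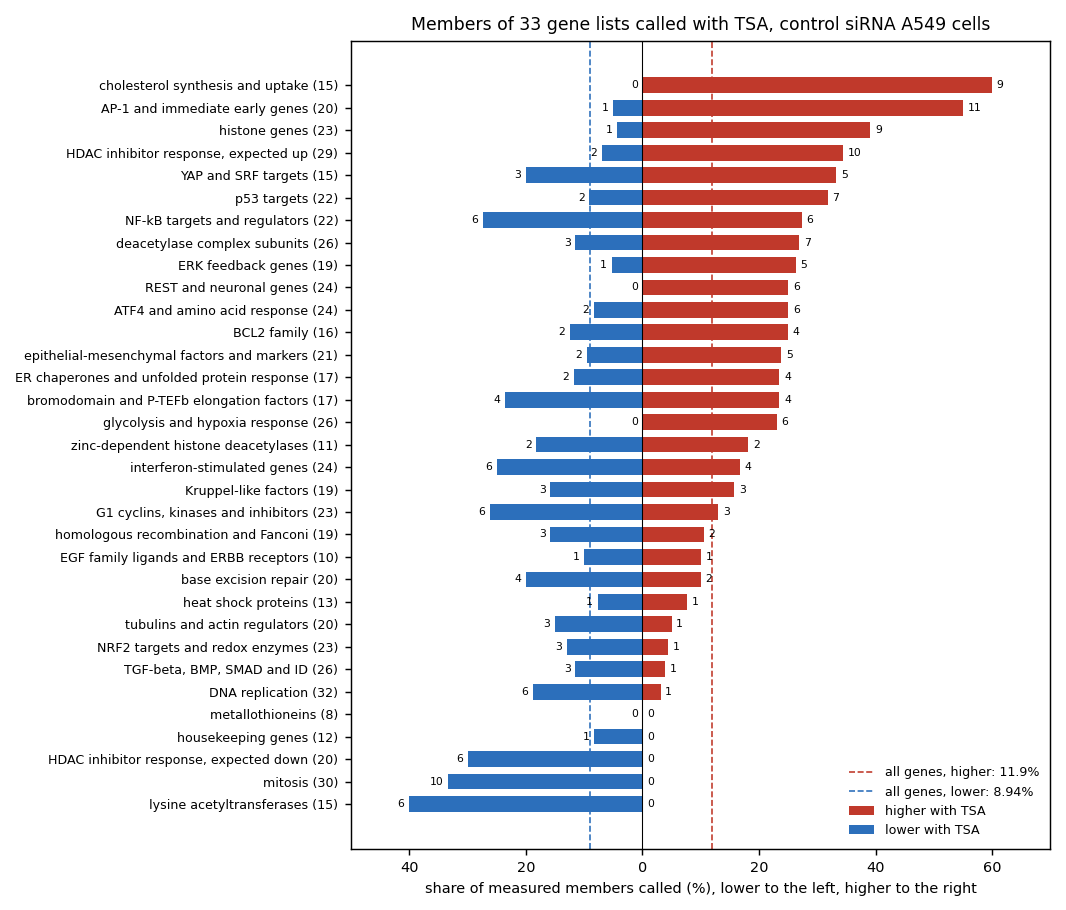
Share of the measured members of each of 33 gene lists (number measured in brackets) called higher (red bars, to the right) or lower (blue bars, to the left) with TSA, with the number called at the end of each bar and dashed lines at the shares of all genes, 11.9% and 8.94%. Cholesterol synthesis (9 of 15) and immediate early genes (11 of 20) have the highest shares called higher. The list of lysine acetyltransferases and BRPF scaffolds (6 of 15) and mitosis genes (10 of 30) have the highest shares called lower.

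NF-kB targets and regulators were divided, with 6 of 22 higher and 6 lower and a median of -0.17, and 6 and 9 without APE1 siRNA replicate 2. The share was 27.3% each way, beside 11.9% of all genes higher and 8.94% lower. Without that array the shares of all genes were 16.4% and 14.4%. CCL20, a chemokine for CCR6-bearing lymphocytes, read 7.91, 7.77 and 7.87 without TSA and 10.60, 10.78 and 10.68 with it, a rise of 2.84 (SE 0.07, adjusted p = 1.66e-08). CXCL8 (interleukin 8) rose by 1.83 (SE 0.06), IL1A by 1.28 (SE 0.08) and NFKBIZ, an inducible nuclear IkB protein, by 1.24 (SE 0.06). CCL2, a monocyte chemokine singled out after its values were seen, fell from 7.88, 7.60 and 7.74 to 5.97, 6.27 and 6.21 (-1.59, SE 0.13). Interferon-stimulated genes were divided as well, with 4 of 24 higher (16.7%, not far from the share of all genes) and 6 lower (25%). Members of the IFIT family, which bind foreign RNA, moved apart: IFIT1 rose from 6.52, 6.34 and 6.73 to 9.06, 8.89 and 9.07 (2.47, SE 0.11), whereas IFIT3 fell from 9.14, 9.08 and 9.10 to 7.21, 7.37 and 7.59 (-1.71, SE 0.11). ISG15, a ubiquitin-like modifier, rose by 1.42 (SE 0.06), and IFI6 by 1.26 (SE 0.12). In each of these genes the arrays of the 2 groups did not overlap.

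Sterol synthesis genes had the largest share of risers of the 33 lists, 9 of 15 higher and 0 lower with a median of 0.66. HMGCS1, which makes HMG-CoA, read 7.82, 7.95 and 7.76 without TSA and 9.72, 9.80 and 9.76 with it, a rise of 1.92 (SE 0.11, adjusted p = 1.11e-06). IDI1, the isopentenyl diphosphate isomerase, rose by 1.76 (SE 0.07) from 9.68, 9.74 and 9.90 to 11.56, 11.50 and 11.56, although 1 of its 4 probe sets was called lower (-0.52). STARD4, a cholesterol carrier, rose by 1.35 (SE 0.07), and SQLE, the squalene epoxidase, by 0.83 (SE 0.06). When the probe sets of a gene were averaged, 5 of the 15 were called higher. Of 26 glycolysis and hypoxia genes 6 were higher and 0 lower, and 10 and 1 without APE1 siRNA replicate 2. The glucose transporters SLC2A3 and SLC2A1 rose by 1.57 (SE 0.15) and 0.97 (SE 0.08), hexokinase HK1 by 1.07 (SE 0.08) and the carbonic anhydrase CA12 by 0.86 (SE 0.07). All 3 TSA arrays of SLC2A3 (10.15, 10.14 and 10.18) were above the untreated arrays (8.68, 8.54 and 8.54).

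Genes of adhesion and growth factor signalling were called both ways, beside 11.9% of all genes higher and 8.94% lower. For TGF-beta and BMP genes the shares were 3.85% and 11.5%. Those of epithelial and mesenchymal genes were 23.8% and 9.52%. Of 15 targets of YAP and SRF 5 were higher and 3 lower. CCN2 (CTGF), a matricellular protein, read 8.01, 8.09 and 8.12 without TSA and 11.13, 10.95 and 10.95 with it, a rise of 2.94 (SE 0.07, adjusted p = 1.25e-08). CRIM1, a transmembrane protein that binds BMPs, rose by 1.55 and THBS1 (thrombospondin 1) by 1.31, whereas AJUBA, a LIM protein of the Hippo pathway, fell by 0.97. Of 26 genes of TGF-beta and BMP signalling 1 was higher and 3 lower, and without APE1 siRNA replicate 2 the counts were 6 and 9. The ligand TGFB2 fell from 10.20, 10.27 and 10.08 to 9.08, 9.06 and 9.04 (-1.13, SE 0.09), SMAD1, a mediator of BMP signals, by 1.23 (SE 0.13) and the inhibitory SMAD7 by 0.37, while the co-receptor TGFBR3 rose by 0.77. Of 21 epithelial and mesenchymal genes 5 were higher and 2 lower, which became 1 and 2 when the 12 A549 arrays were quantile normalized once more. OCLN (occludin) of tight junctions rose by 0.62, FN1 (fibronectin) by 0.58 and SNAI2 (Slug) by 0.42, and GRHL2, a paralog of GRHL1, fell from 5.10, 5.21 and 5.14 to 4.77, 4.71 and 4.67 (-0.44, SE 0.06), at low signal. Of 19 Kruppel-like factors and SP proteins 3 were higher and 3 lower: KLF2 rose by 1.26 (SE 0.10) and SP4 by 0.72, and SP1, a factor that binds GC boxes, fell from 9.92, 9.93 and 9.97 to 9.33, 9.22 and 9.32 (-0.65, SE 0.08).

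Stress pathways had calls in both directions, beside 11.9% of all genes higher and 8.94% lower. Without APE1 siRNA replicate 2 the shares of all genes were 16.4% and 14.4%. Several lists were near or below those of all genes in at least 1 direction. Heat shock genes had 7.69% each way, and NRF2 targets and redox enzymes 4.35% higher and 13% lower. ATF4 genes had 25% higher and 8.33% lower, and unfolded protein response genes 23.5% and 11.8%. Of 24 genes that ATF4 controls when amino acids run short 6 were higher and 2 lower. ATF3, a stress-induced factor, rose by 1.33 (SE 0.19) from 7.27, 7.61 and 7.33 to 8.73, 8.71 and 8.77, the serine synthesis enzymes PSPH and PSAT1 by 0.59 and 0.44, and SLC3A2, the heavy chain of amino acid transporters, fell by 1.05 (SE 0.11). When the 12 A549 arrays were quantile normalized once more, the counts of this list were 2 higher and 5 lower, and without APE1 siRNA replicate 2 they were 6 and 5. Of 17 genes of the unfolded protein response 4 were higher and 2 lower, with the sensors ERN1 (1.00, SE 0.08) and ATF6 (0.66, SE 0.06) and the degradation factors SEL1L (0.90, SE 0.07) and EDEM1 (0.67, SE 0.06) higher. The list had 9 higher and 2 lower without APE1 siRNA replicate 2, and with the further quantile step 2 and 0. Of 13 heat shock genes DNAJB1, a co-chaperone, rose by 1.06 (SE 0.21) and the factor HSF1 fell by 0.42 (SE 0.07), with counts of 3 and 2 without APE1 siRNA replicate 2. Of 23 NRF2 targets and redox enzymes 1 was higher and 3 lower, and 2 and 9 without APE1 siRNA replicate 2. A549 cells are known for a mutated KEAP1, the adaptor that marks NRF2 for degradation, and the KEAP1 transcript fell from 9.86, 9.89 and 9.89 to 8.32, 8.21 and 7.98 (-1.71, SE 0.19). GCLM, a subunit of the enzyme that starts glutathione synthesis, fell from 11.97, 12.14 and 12.01 to 10.99, 10.91 and 10.85 (-1.13, SE 0.08), and PGD of the pentose phosphate pathway fell by 0.66. The carbonyl reductase CBR1 rose by 0.39, a call that was lost without untreated replicate 1 (adjusted p = 0.0536) or 2 (0.0775) or TSA replicate 2 (0.0752). None of the 8 genes on the metallothionein list, which counts the transcription factor MTF1, was called. The 2 with the smallest adjusted p, MT1G (12.59 ± 0.05 and 12.45 ± 0.03, SD, n = 3) and MT1H (13.24 and 13.15), were high on every array.

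Some neuronal genes, of the kind that the repressor REST silences elsewhere in the body, were among those that rose. Of 24 measured genes on the list of REST and neuronal genes, which counts REST itself, 6 were higher and 0 lower, with a median of 0.23. SYT1, a calcium sensor of synaptic vesicles, read 9.63, 9.68 and 9.67 without TSA and 11.19, 11.16 and 11.09 with it (1.49, SE 0.05, adjusted p = 7.19e-08). INA, a neuronal intermediate filament, rose by 1.36 (SE 0.07) from 9.30, 9.31 and 9.31 to 10.69, 10.67 and 10.66, and SCG2, a secretogranin, by 1.06 (SE 0.15). In SYT1 and INA the gap between the groups was many times the spread within either. Of 20 tubulins and actin regulators 1 was higher and 3 lower, and 5 and 4 without APE1 siRNA replicate 2. TUBB2A, a beta tubulin, rose by 0.99 (SE 0.16), and TUBB, TUBA1C and TUBA1B fell by 0.72, 0.52 and 0.33, from signals above 13 near the top of the array's range. The call of TUBA1B was lost, with its change falling under that minimum, without untreated replicate 2 or 3 or TSA replicate 2 (changes of -0.32, -0.31 and -0.32).

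DNA repair genes included the gene that the study targets. APEX1 read 12.20, 12.24 and 12.14 without TSA and 11.85, 11.77 and 11.77 with it. The 2 groups did not overlap and the difference was -0.39, but the SE of the 12-array fit was 0.36 and it was not called (adjusted p = 0.536). Without APE1 siRNA replicate 2, the array of another group that widens this SE, the adjusted p of APEX1 was 0.000127. Of 20 base excision repair genes 2 were higher and 4 lower, with a median of -0.28, and 2 and 9 without that array. The shares with it, 10% higher and 20% lower, stood beside 11.9% and 8.94% of all genes. Without that array the shares of all genes were 16.4% and 14.4%. The glycosylase NEIL3 fell from 8.80, 8.83 and 8.72 to 8.02, 7.94 and 7.96 (-0.81, SE 0.10), PARP2 by 0.79 and the ligase LIG3 by 0.61, and MBD4, a glycosylase for mismatched thymine, rose by 0.46. Of 19 genes of homologous recombination and the Fanconi pathway 2 were higher and 3 lower (2 and 6 without that array), among them FANCE (0.63), FANCM (0.62), FANCL (-0.45) and RAD51D (-0.60). The share of that list called higher, 10.5%, was near that of all genes, and 15.8% were lower. The call of FANCM was lost without untreated replicate 2 (adjusted p = 0.0641) or TSA replicate 3 (0.0703). Of 12 housekeeping genes 0 were higher and 1 lower, with a median of -0.00. The 1 called, YWHAZ, an adaptor of the 14-3-3 family, changed by -0.40 (adjusted p = 0.0332); its probe sets disagreed, from -0.55 to 0.46, and its adjusted p was 0.0675 to 0.127 without untreated replicate 2 or 3 or TSA replicate 2 or 3.

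The same treatment was measured in APE1-depleted cells on 6 other arrays, which share no array with this comparison. There 3030 genes were higher with TSA (15.3%) and 1933 lower (9.77%), with 956 (4.83%) and 293 (1.48%) at least 2-fold. Of the 2358 genes that rose in control siRNA cells, 2342 (99.3%) changed with the same sign in APE1-depleted cells and 2097 (88.9%) were called higher there, and of the 1767 that fell, 1755 (99.3%) had the same sign and 1284 (72.7%) were called lower. No gene was called in opposite directions. All 629 genes at least 2-fold higher and all 222 at least 2-fold lower kept their sign. Among all genes tested 77.4% had the same sign in both. The added control transcripts differed in the same directions on those arrays, with a median of -1.80 for bioB, -1.96 for dap and 1.75 for 18S rRNA, so the 2 sets of arrays do not separate the drug from these differences.

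**Figure D5:**
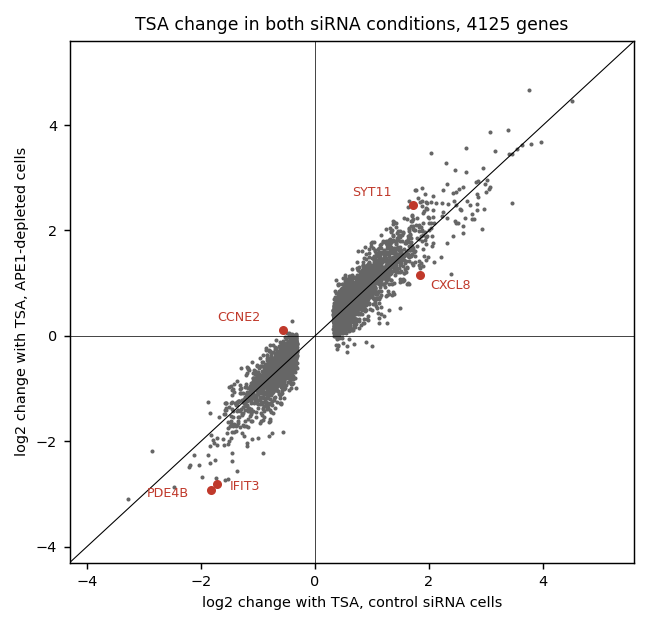
Log2 change with TSA in APE1-depleted cells (vertical axis) against that in control siRNA cells (horizontal axis) for the 4125 genes called in control siRNA cells, with the line of equal change. Points lie near the line, and 5 genes named in the text whose changes differed by the interaction test are in red.

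Individual genes differed more or less between the 2 siRNA conditions. C7orf57 rose by 4.51 in control siRNA cells and 4.45 in APE1-depleted cells, ABAT by 3.96 and 3.67, H2BC21 by 2.55 and 2.38, and NANOS1 by 3.55 in both. GRHL1 rose by 3.75 and 4.67, EP300-AS1 by 3.07 and 3.87, and DNER by 3.45 and 2.52. KCTD15 changed by -3.28 and -3.09, HMGA2 by -2.86 and -2.18 and CCDC9B by -1.99 and -2.68. Without APE1 siRNA replicate 2 the changes in APE1-depleted cells were 4.96 for C7orf57, -3.61 for KCTD15 and 3.35 for DNER. The interaction of siRNA and TSA, which tests whether the 2 changes differ, was called for 24 of 19775 genes (0.121%), and for 357 without APE1 siRNA replicate 2. None of the genes named above in this paragraph was among the 24. Interaction adjusted p was 0.108 in EP300-AS1, 0.112 in GRHL1, 0.249 in CCDC9B, 0.296 in HMGA2 and 0.801 in DNER. Without APE1 siRNA replicate 2 it was 0.0159, 0.0155, 0.0445, 0.0480 and 0.775. Among the genes with a called difference were CXCL8, which rose by 1.83 in control siRNA cells and 1.16 in APE1-depleted cells (difference -0.68, interaction adjusted p = 0.0452), and PDE4B, which fell by 1.82 and 2.93 (difference -1.11, adjusted p = 0.0271).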

How the data were processed

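RNA from A549 cells was hybridized to Affymetrix arrays, 1 array a sample. The deposited log2 values were made by the authors with the affy package, using RMA background correction and quantile normalization of the probe signals; versions of these tools: not given in the sources used here. Probe sets were named through the platform annotation: of 54675, the 62 for controls entered no test, and 41091 of the 54613 tested had 1 gene symbol, 1801 several and 11721 none, which gave 19775 genes.

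Groups were taken from the sample labels. A linear model with one mean for each of the 4 A549 groups was fitted over 12 arrays with limma 3.58.1 (lmFit and eBayes) in R 4.3.3, and p-values were adjusted over all probe sets. No value was filtered out or imputed. Scripts were tested on simulated data. Python 3.11.15, pandas 2.3.3 and matplotlib 3.10.9 were used for counts and plots. The genes named are, among those called, the 15 that rose most and the 15 that fell most, up to 4 called genes of each of 33 lists by smallest adjusted p, 2 where none was called, the 11 histone deacetylases and APEX1; any other is said to be chosen after its values were seen, apart from marker genes and those that a value beside them turns on. The members and lists were chosen with earlier results of these data known. Alternatives were other sets of arrays, the replicate number as a block, further normalization or centring, a filter on low signal, a trended and robust eBayes, the mean or any of a gene's probe sets, other thresholds, and each array left out in turn. The replicate numbers did not pair the arrays: the deviations of same-numbered arrays correlated at -0.0793, 0.00295 and 0.0307. Deposited tables of the authors' own comparisons hold log2 fold changes and p-values and were not used.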

Additional observations from a re-analysis of the deposited data

Results flagged for a closer look

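Some genes named in the report changed by different amounts with TSA in control siRNA and APE1-depleted cells, by the interaction term of the limma fit (Benjamini-Hochberg adjusted over all probe sets). PDE4B, the cAMP phosphodiesterase, changed by -1.82 in control siRNA cells and -2.93 in APE1-depleted cells, a difference of -1.111 (adjusted p = 0.0271). IFIT3 changed by -1.71 and -2.81, a difference of -1.099 (adjusted p = 0.0495). CXCL8 changed by 1.83 and 1.16, a difference of -0.6757 (adjusted p = 0.0452). SYT11 changed by 1.72 and 2.47, a difference of 0.7536 (adjusted p = 0.0452). CCNE2, an E cyclin, changed by -0.57 and 0.11, a difference of 0.6731 (adjusted p = 0.039), and its change in APE1-depleted cells was not called.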

How the results depend on the processing

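The count of genes lower with TSA, 1767, depended most on the arrays and probe sets used: it was 2859 with only the 6 arrays compared, 2855 without APE1 siRNA replicate 2, 2951 when the 6 arrays were quantile normalized once more, and 2882 when any probe set of a gene could be called. With the replicate number as a block 2276 genes were higher and 1688 lower, and with the block and without APE1 siRNA replicate 2, a setting chosen after seeing the data, 3249 and 2856. Averaging the probe sets of each gene left 394 genes at least 2-fold higher and 133 lower, with 73.7% of the 4125 calls kept and 2 turned. Normalizing all A549 arrays once more by quantiles kept 68.9% of the calls, with none turned. Of 158 genes named by the rule 27 lost their call in that setting, among them HDAC6, RCOR1, ING1, MCM6, ATF6 and FN1, and 20 when probe sets were averaged, among them HDAC6, HDAC9, CREBBP, AURKA, JUND, DUSP6 and TUBB. Leaving out each of the 6 arrays in turn gave 2053 to 2167 genes higher and 1404 to 1642 lower. In APE1-depleted cells the count of genes lower was 1933, and 3157 without APE1 siRNA replicate 2, and the interaction was called for 24 and 357 genes. None of the 158 turned direction as a call in the settings in which single genes were refitted, which leave out the any-probe-set and threshold settings; AFF1 and IDI1 each have 1 probe set called lower. The number of arrays limits the precision, and the added control transcripts differ with the treatment.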

Other observations

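Families that share a symbol root were counted as well; the families and their members below were chosen after their values were seen, and their counts are a description beside the background of 11.9% of genes higher and 8.94% lower. Of 38 CEP genes, most of which encode centrosomal proteins, 18 were higher and 5 lower with TSA. CEP70 read 8.06, 8.0 and 7.89 without TSA and 9.55, 9.69 and 9.49 with it, a rise of 1.59, and CEP19 and CEP128 rose by 1.36 and 1.20. CEP20 was among those that fell (-0.95). Of 18 IFT genes, which encode the intraflagellar transport particles that build cilia, 8 were higher and 0 lower, with a median of 0.45. IFT80 rose by 1.14 from 8.92, 8.87 and 8.81 to 10.02, 9.95 and 10.03, IFT57 by 1.06 and IFT56 by 1.03, in each case with no overlap between the groups. Of the ciliated cell markers FOXJ1 (0.01) and DNAH9 (-0.20) were not called, and of 13 DNAH genes of axonemal dynein heavy chains 0 were higher and 1 lower.

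Of 70 RAB genes, small GTPases of membrane traffic, 17 were higher and 2 lower. RAB39B rose by 2.51 from 6.05, 6.03 and 5.65 to 8.36, 8.26 and 8.62, RAB40B by 1.90 and RAB30 by 1.62. Of 32 genes with the root TBC, most of which encode GTPase-activating proteins for RABs, 10 were higher and 1 lower, among them TBC1D8B (1.55) and TBC1D24 (1.29). The RNA-binding RBM genes (2 of 37 higher and 8 lower) and DDX helicases (1 of 37 higher and 7 lower) had more members lower than higher. So did the PHD finger genes with the root PHF, 1 of 19 higher and 6 lower, among them the histone demethylase PHF2, which read 8.46, 8.63 and 8.54 without and 6.96, 6.97 and 6.99 with TSA (-1.57), and PHF23 (-1.39). Of 49 MRPL genes of the mitochondrial ribosome 0 were higher and 3 lower.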
